A study of Danio rerio with 2 samples.

Results

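The outermost 500 kb at each end of the zebrafish chromosomes was examined in RNA from whole larvae exposed to valbenazine and from larvae kept in DMSO. The ends were taken as the first 500 and the last 500 windows of 1 kb on chromosomes 1 to 25, with chromosome 4 left out, which gives 48 ends with 24000 of the 1345132 windows of the tracks. The rule uses position and no measured value. Each end was set against the windows 2 to 5 Mb from the same end, 144000 windows in all. The left end of a chromosome is the one where positions begin, and the right end is the one where they stop.

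There were 2 libraries. The first was made from wild-type larvae exposed to 10 µM valbenazine, a drug that blocks the transporter which loads monoamines into vesicles. The second came from wild-type larvae that received the solvent DMSO alone. Each library was a pool of 50 whole larvae, and neither the age of the larvae nor the amount of DMSO is given by the labels. With 1 library per group there is no replicate error, so every difference given is one between 2 libraries, without a test.

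A chromosome ends in telomere repeats, short repeated units bound by proteins that keep the end from being treated as a break. Inward of them lie subtelomeric regions, which in many animals carry duplicated segments and repeats and then pass into ordinary gene-bearing sequence. Crossovers in male zebrafish are known to gather towards the chromosome ends. The long arm of chromosome 4 is known in zebrafish as a stretch rich in repeats and poor in transcribed protein-coding genes, unlike the other arms.

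The values are read depths per window. Whether stretches that a spliced read skips count towards the depth is not stated. Covered shares and long level stretches would depend on it. The summed depth of the tracks was 61750003.5 in valbenazine and 58693226.5 in the DMSO control, and the number of reads behind them is unknown. A window is called covered where its depth is above 0, which held for 66.3% of all windows in valbenazine and for 62.6% in the DMSO control. Scaled depth means depth after both libraries were brought to the same sum. The tracks carry no gene names, and no gene is assigned to any window here. Fewer cells of a type and less RNA per cell cannot be told apart in such whole-body samples.

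The ends were covered more fully than the windows inward of them in both libraries. In valbenazine 84.1% of the windows of the ends were covered, against 67.8% of the windows 2 to 5 Mb away, a difference of 16.3 percentage points. In the DMSO control 78.8% of the windows of the ends were covered, against 63.4% inward, a difference of 15.5 percentage points. Only 12.2% of the windows of the ends had no depth in either library, against 26.4% of the windows 2 to 5 Mb away. The difference was found in most chromosomes: 41 of the 48 ends were covered above their own 2 to 5 Mb in both libraries, and 43 in each library taken alone.

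The spread along the chromosomes inward of the ends was wide. The 2 to 5 Mb next to each end were divided into 6 blocks of the same length as an end, 288 blocks in all, and their covered shares ran from 7.20% to 100% in valbenazine and from 6.2% to 100% in the DMSO control. The medians of the blocks were 72.4% in valbenazine and 65.8% in the DMSO control, where the medians of the ends were 86.9% in valbenazine and 82.2% in the DMSO control. An end was covered above all 6 of its own blocks at 14 ends in valbenazine and at 16 in the DMSO control, and at 10 ends in both. A single end therefore often lay within the range of single blocks from its own chromosome, while the middle of the ends lay above the upper quartile of the blocks, which was 84.6% in valbenazine and 78.2% in the DMSO control.

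**Figure D1:**
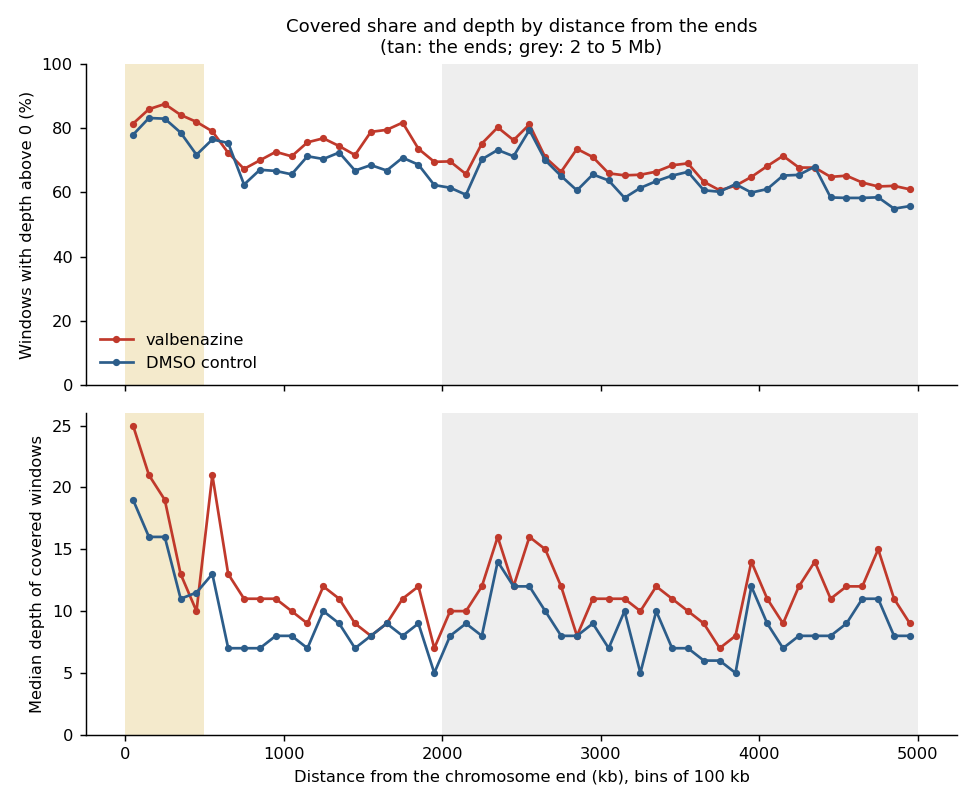
Share of windows with a depth above 0 (upper panel, percent) and median depth of those windows (lower panel) by distance from the nearer chromosome end, in bins of 100 kb pooled over the 48 ends, for valbenazine (red) and the DMSO control (blue). The 5 bins of the ends lie between 81.4% and 87.5% covered in valbenazine, and the 30 bins from 2 to 5 Mb between 60.6% and 81.1%.

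Coverage was not highest at the very tips. In the outermost 5 kb 46.2% of windows were covered in valbenazine and 42.5% in the DMSO control, below the level 2 to 5 Mb away. From 5 to 10 kb the share was 61.7% in each library, and from 20 to 50 kb it was 84.4% in valbenazine and 83.2% in the DMSO control. It stayed above 80% out to 500 kb in valbenazine, with 81.9% in the last 100 kb. In the DMSO control it was 71.7% there. From 500 to 1000 kb 72.2% of windows were covered in valbenazine and 69.6% in the DMSO control. From 1000 to 2000 kb the share was 75.3% in valbenazine and 68.3% in the DMSO control. In bins of 100 kb, as in the plot of coverage by distance, the ends and the 2 to 5 Mb narrowly did not overlap in valbenazine. The lowest bin of the ends had 81.4% and the highest inward 81.1%, and the bin from 1700 to 1800 kb had 81.7%, within the range of the ends. In the DMSO control they overlapped, with 71.7% to 83.1% at the ends and 54.9% to 79.4% inward.

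The outermost window of the chromosome was covered at 18 ends in valbenazine and at 16 in the DMSO control. At the median end 1.5 kb of uncovered windows lay outside the first covered one in valbenazine and 1 kb in the DMSO control. The longest uncovered tip was 32 kb, at the right end of chromosome 20, and it had the same length in both libraries.

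Covered windows were also deeper at the ends. Their median depth was 17 in valbenazine and 14 in the DMSO control, against 11 in valbenazine and 8 in the DMSO control in the windows 2 to 5 Mb away. It was above that of the own 2 to 5 Mb at 36 of the 48 ends in valbenazine and at 35 in the DMSO control. From 400 to 500 kb the median was 10 in valbenazine and 11.5 in the DMSO control. From 500 to 600 kb, outside the ends, it was 21 in valbenazine and 13 in the DMSO control. The upper tail differed more than the middle. Of the covered windows of the ends 10% reached a depth of 163 or more in valbenazine and 147 in the DMSO control, against 76 in valbenazine and 64 in the DMSO control inward. Of all windows of the ends 12.6% reached a mean scaled depth of 100, against 4.28% of the windows 2 to 5 Mb away and 4.80% of the whole tracks.

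Runs of adjacent windows at that depth were taken as loci, with at least 3 windows each and a split where adjacent depths differed over 4-fold. The ends held 300 loci, 12.5 per Mb, and the windows 2 to 5 Mb away held 484 loci, 3.36 per Mb. A locus at the ends was 6 kb long at the median, against 8 kb inward. Only 3 ends held no locus, the right ends of chromosomes 2 and 20 and the left end of chromosome 3. On chromosome 22 the left end held the most, with 14, followed by the left ends of chromosomes 11 (13 loci) and 18 (12 loci).

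The values also changed over shorter distances. In valbenazine 51.2% of the covered windows of the ends repeated the value of the preceding window, against 66.5% of those 2 to 5 Mb away. In the DMSO control 50.8% of those of the ends did, against 66.1% inward. Windows that differed from both neighbours in both libraries made up 20.9% of the ends and 8.21% of the windows inward. The 24000 windows of the ends fell into 12570 runs of equal values, between 128 and 362 runs per end, so that the windows of an end are not independent of each other.

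The ends held a larger share of the summed depth than of the windows. They are 1.78% of all windows and held 5.66% of the summed depth in valbenazine and 6.06% in the DMSO control. The mean scaled depth per window was 142 in valbenazine and 152 in the DMSO control, which is 3.70 times in valbenazine and 4.2 times in the DMSO control that of the windows 2 to 5 Mb away (38.4 in valbenazine and 36.2 in the DMSO control). The means of the windows between were high as well. From 500 to 1000 kb the mean was 64.2 in valbenazine and 68.0 in the DMSO control. From 1000 to 2000 kb it was 93.4 in valbenazine and 101 in the DMSO control. By the mean, both stretches were near or above the innermost 100 kb of the ends (65.8 in valbenazine and 58.8 in the DMSO control). The median depth of covered windows from 1000 to 2000 kb was only 10 in valbenazine and 8 in the DMSO control. From 2 to 5 Mb it was 11 in valbenazine and 8 in the DMSO control. Single windows from 1000 to 2000 kb reached 201194 in valbenazine and 210104 in the DMSO control. The means of the ends rest on few windows. The 10 deepest windows held 33.7% of the depth of all ends in valbenazine and 36.1% in the DMSO control, and 8 of them lay at the left end of chromosome 17. Without the windows at a scaled depth of 3000 or more, the mean of the ends was 60.5 in valbenazine and 55.7 in the DMSO control, 2.41 times the mean inward in valbenazine and 2.54 times in the DMSO control.

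**Figure D2:**
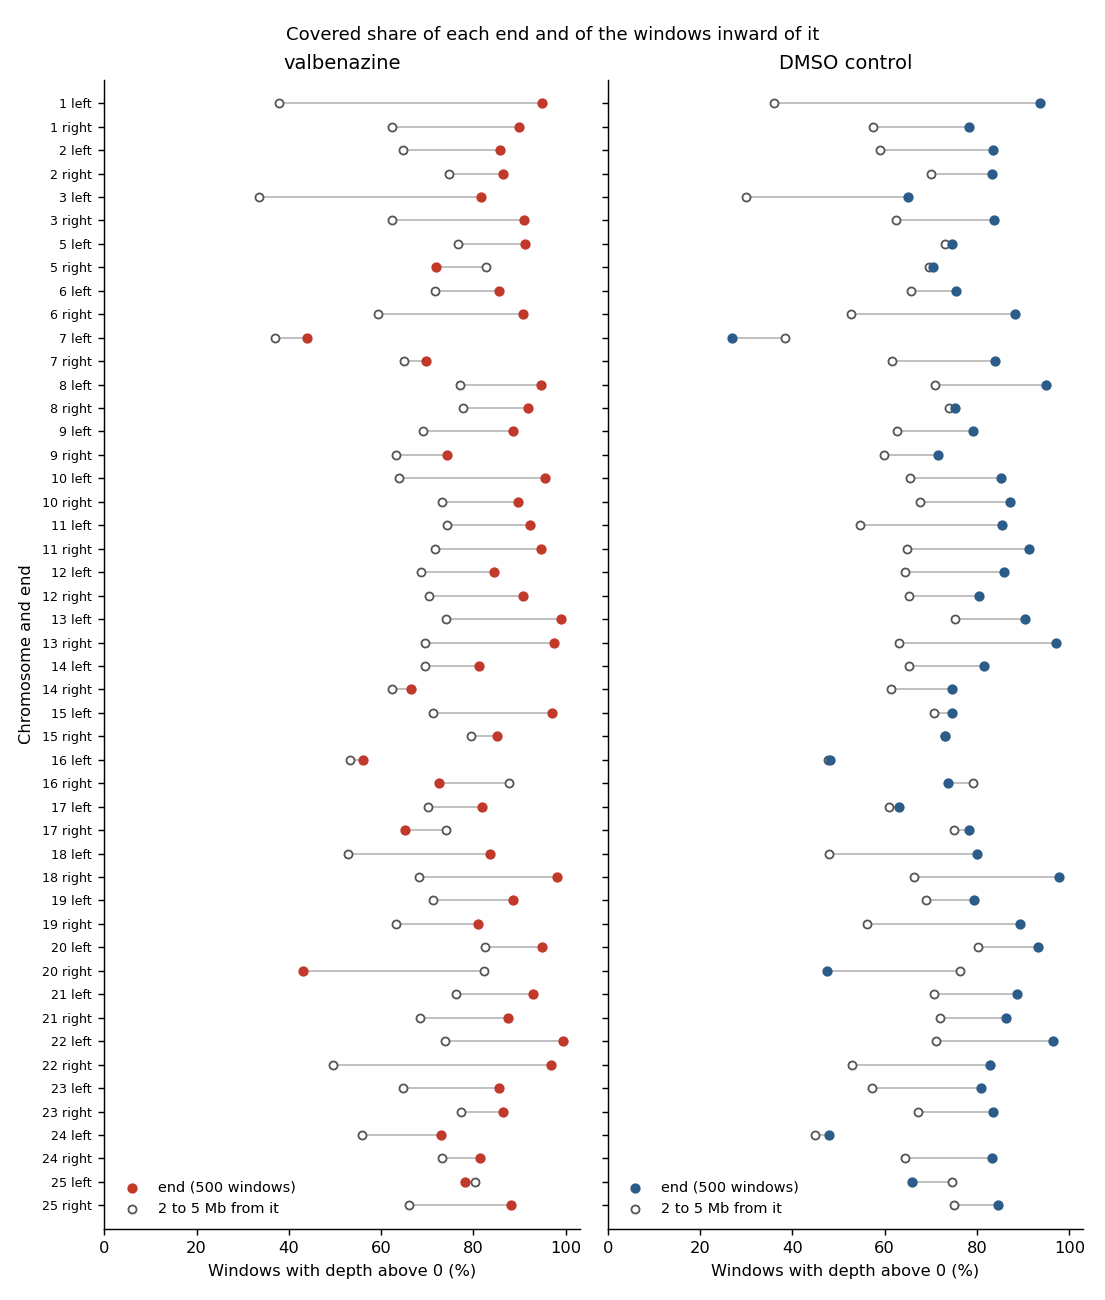
Share of windows with a depth above 0 (percent) at each of the 48 ends (filled points) and in the windows 2 to 5 Mb from it (open points), for valbenazine on the left and the DMSO control on the right. Filled points lie to the right of open ones at 43 ends in each panel, and the right end of chromosome 20 is far to the left of its open point in both.

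The best covered ends were nearly without gaps. On chromosome 22 the left end was covered in 99.4% of windows in valbenazine and 96.4% in the DMSO control, and no window of it lacked depth in both libraries. The same held for the left end of chromosome 13, with 99% in valbenazine and 90.4% in the DMSO control. On chromosome 18 the right end was covered in 98% of windows in valbenazine and 97.8% in the DMSO control. The right end of chromosome 13 was covered in 97.4% in valbenazine and 97.2% in the DMSO control, and the left end of chromosome 8 in 94.6% in valbenazine and 95% in the DMSO control. On chromosome 1 the left end had 94.8% in valbenazine and 93.6% in the DMSO control, where its own 2 to 5 Mb had 37.8% in valbenazine and 36.0% in the DMSO control. Of these ends the right end of chromosome 13 had the deepest covered windows, with a median depth of 76 in valbenazine and 75 in the DMSO control, and no window of it went above 485 in valbenazine or 462 in the DMSO control.

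At the other extreme, the left end of chromosome 7 was covered in 44.0% of windows in valbenazine and 27.0% in the DMSO control. It had the longest stretch without depth in either library, 53 kb, which began 137 kb from the end. Its own 2 to 5 Mb were sparse as well, with 37.0% in valbenazine and 38.3% in the DMSO control. On chromosome 20 the right end had 43.0% in valbenazine and 47.4% in the DMSO control, but its 2 to 5 Mb had 82.3% in valbenazine and 76.4% in the DMSO control. It lay below all 6 of its blocks in both libraries, and no window there had a depth above 85 in valbenazine or 71 in the DMSO control. On chromosome 16 the left end was covered in 56.0% of windows in valbenazine and 48.2% in the DMSO control, close to its 2 to 5 Mb (53.2% in valbenazine and 47.6% in the DMSO control). On chromosome 24 the left end had 73.0% in valbenazine and 48% in the DMSO control. On chromosome 14 the right end had 66.4% in valbenazine and 74.6% in the DMSO control, and the right end of chromosome 5 had 71.8% in valbenazine and 70.4% in the DMSO control.

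Of the 7 ends that were not above their own 2 to 5 Mb in both libraries, 3 were below in both. They were the right end of chromosome 20, the right end of chromosome 16 (72.6% in valbenazine and 73.8% in the DMSO control, against 87.7% in valbenazine and 79.2% in the DMSO control inward) and the left end of chromosome 25 (78.2% in valbenazine and 66.0% in the DMSO control, against 80.3% in valbenazine and 74.7% in the DMSO control inward). The other 4 were the right ends of chromosomes 5 and 17, below in valbenazine alone, and the left end of chromosome 7 and the right end of chromosome 15, below in the DMSO control alone. At the right end of chromosome 15 the difference was small, with 73.0% at the end and 73.03% inward.

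Left and right ends were then set side by side. By the mean covered share of both libraries, the left end was the better covered one on 11 chromosomes and the right end on 13. The order of the pooled ends differed between the libraries. In valbenazine 85.4% of the windows of left ends and 82.9% of those of right ends were covered. In the DMSO control it was 76.7% at left ends and 81.0% at right ends. Over the 24 chromosomes the rank correlation of the covered shares of left and right ends was 0.28, given as a description, since both ends share the same libraries. Between the libraries, the rank correlation over the 48 ends was 0.69 for the covered share and 0.99 for the mean scaled depth.

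More windows of the ends were covered in valbenazine than in the DMSO control, as elsewhere in the tracks. In valbenazine alone 2161 windows of the ends had depth (9.0%), and in the DMSO control alone 889 (3.70%). The median depth of these windows was 2 in each set. Inward 10.2% of windows had depth in valbenazine alone and 5.83% in the DMSO control alone. The covered share was higher in valbenazine at 38 ends and lower at 10, and higher in valbenazine in 40 of the 48 inward stretches. The difference, valbenazine minus DMSO control, ran from -14.2 percentage points at the right end of chromosome 7 to 25 at the left end of chromosome 24, with a median of 3.5.

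The ratio of the libraries was computed per window as the log2 of valbenazine over DMSO control, on scaled depth plus a pseudocount of 9.03. Those whose mean scaled depth reached that value were compared, 12027 at the ends and 49375 inward. The median log2 ratio was 0.23 at the ends (quartiles -0.09 and 0.57) and 0.26 inward (quartiles -0.06 and 0.60), a difference of -0.03. The sign changes with the scaling. Median-ratio scaling shifts unadjusted log2 ratios by -0.32, and under it the median at the ends was -0.04 and its difference from the windows inward was -0.06.

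At least 2-fold higher in valbenazine were 953 windows of the ends, 7.92% of those compared, where the background over all windows was 7.73%. At least 2-fold lower were 457, 3.8% of those compared, where the background was 1.05%. The share of higher windows was thus near the background, and the share of lower windows was above it. That excess came mostly from few ends. The right end of chromosome 19 alone held 209 of the 457 lower windows, in 9 runs of adjacent windows. The left end of chromosome 15 held 43, in 1 run. Windows of such a run are not separate cases. Without both ends, 205 windows were lower, 1.81% of those compared, and 932 were higher, 8.22%. Of the differing windows 67.6% were higher, but 45.0% under median-ratio scaling (539 higher and 659 lower) and 79.3% without the right end of chromosome 19. Over all windows 37163 were higher and 5068 lower, and inward 4313 and 490, so higher ones made up a larger share there than at the ends. The share over all windows under median-ratio scaling is not given here.

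Below a scaled depth of 1000 the median ratios at the ends were close to those of the windows inward. At a scaled depth of 10 to 30 the median log2 ratio was 0.32 at the ends and 0.31 inward, and at 30 to 100 it was 0.25 and 0.26. It was 0.12 and 0.14 at 100 to 300, and 0.11 and 0.10 at 300 to 1000. The share of windows at least 2-fold lower differed more. At 10 to 30 it was 6.29% at the ends and 0.831% inward, and at 30 to 100 it was 2.51% and 0.799%. Without the right end of chromosome 19 and the left end of chromosome 15 these shares of the ends were 2.76% and 1.40%. At 100 to 300 the share was 1.27% at the ends and 1.94% inward, and at 300 to 1000 it was 0.762% and 0.345%. Above 1000 the classes are small. At 1000 to 3000 the 237 windows of the ends had a median of 0.10 and the 362 windows inward -0.11. The share at least 2-fold lower was 16.5% at the ends and 0.552% inward. Without the right end of chromosome 19 and the left end of chromosome 15 it was 0% at the ends. At 3000 and more the 88 windows of the ends had -0.22 and the 163 windows inward -0.04. All 1841 windows of that depth outside the ends had -0.19 (quartiles -0.41 and 0.01), close to the ends. Of those 88 windows 70 were lower in valbenazine, and 4 differed by 2-fold.

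**Figure D3:**
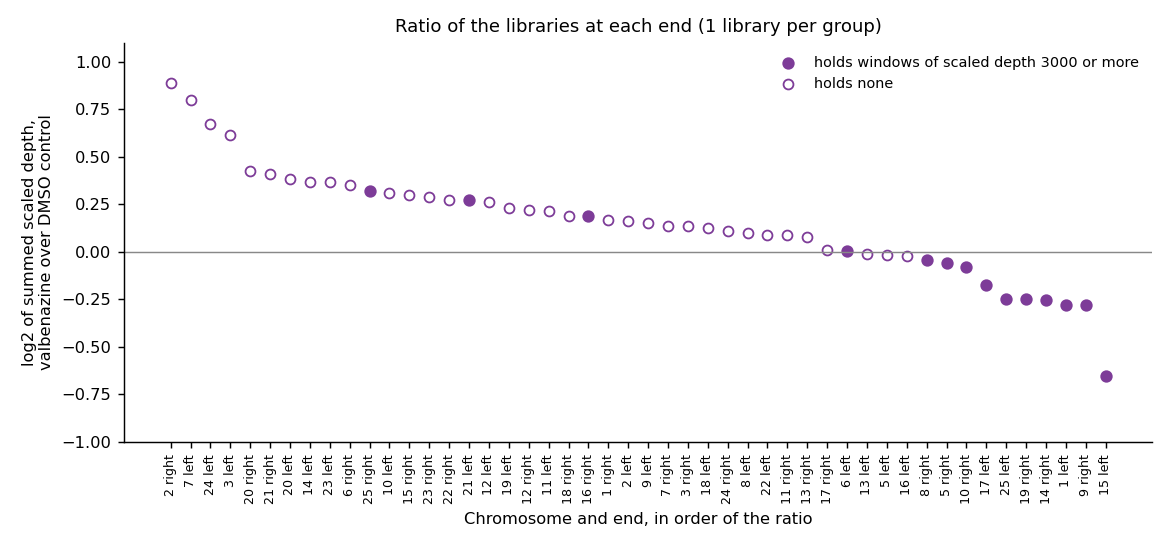
Log2 ratio of the summed scaled depth, valbenazine over DMSO control, at each of the 48 ends in order of the ratio. Filled points are the 14 ends that hold windows with a scaled depth of 3000 or more, of which 10 lie below 0, and open points are the 34 ends without such windows, of which 31 lie above 0.

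Summed over an end, the scaled depth was higher in valbenazine at 35 ends and lower at 13, and no end differed by 2-fold. By the median log2 ratio of the windows compared 2 ends did, and no inward stretch. They were the right end of chromosome 19 (-1.21) and the left end of chromosome 7 (1.01, over 52 windows). The log2 ratio of the sums ran from -0.65 to 0.89 with a median of 0.16. The corresponding ratio of the inward stretches, each longer than an end, ran from -0.35 to 0.55 with a median of 0.19. It was above 0 for 42 of 48. Over the 288 inward blocks of the same length as an end the spread was wider than over the ends. Their ratios ran from -1.23 to 3.49 with a median of 0.22, and 5 blocks were at least 2-fold higher and 1 lower. The ratios of sums carry no pseudocount. The highest was of a block near the left end of chromosome 11, with means of 2.82 in valbenazine and 0.25 in the DMSO control. Those near the right ends of chromosomes 6, 13 and 19 also had means below those of any end (lowest 7.23 in valbenazine and 4.17 in the DMSO control). Those near the left end of chromosome 14 and the right end of chromosome 9 were deeper. Of the 13 ends below 0, 10 had very deep windows: 10 of the 14 ends with windows at a scaled depth of 3000 or more were below 0, and 31 of the 34 others were above it. Under median-ratio scaling 11 ends were above 0 and 37 below. Since a few windows decide these sums, the sums without windows at 3000 or more were also taken, and 40 ends were then above 0 and 8 below.

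Of the 6 ends with the highest ratio, 5 were shallow. At the right end of chromosome 2 the mean scaled depth was 13.2 in valbenazine and 7.14 in the DMSO control, a log2 ratio of 0.89, with 86.4% in valbenazine and 83.2% in the DMSO control of windows covered. The sparse left end of chromosome 7 had 7.23 in valbenazine and 4.17 in the DMSO control, a ratio of 0.80. A run of 23 windows there (459001 to 482000) had a median depth of 45 in valbenazine and 16 in the DMSO control. At the left end of chromosome 24 the means were 17.3 in valbenazine and 10.9 in the DMSO control (0.67), and at the left end of chromosome 3 they were 10.3 in valbenazine and 6.74 in the DMSO control (0.61). The right end of chromosome 20 followed with 11.5 in valbenazine and 8.58 in the DMSO control (0.43). The right end of chromosome 21, with means of 84.6 in valbenazine and 63.8 in the DMSO control (0.41), was the deepest of the 6 and was mixed. It had 41 adjacent windows that were higher (45633001 to 45674000, median depth 41 in valbenazine and 8 in the DMSO control) and, further on, 13 that were lower (45741001 to 45754000, median depth 8 in valbenazine and 40 in the DMSO control).

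The 6 ends with the lowest ratio all held very deep windows. On chromosome 15 the left end had a mean scaled depth of 347 in valbenazine and 544 in the DMSO control, a log2 ratio of -0.65. On chromosome 9 the right end had 323 in valbenazine and 391 in the DMSO control (-0.28), and its 10 deepest windows held 84.6% of its depth in valbenazine and 88.2% in the DMSO control. On chromosome 1 the left end had 254 in valbenazine and 308 in the DMSO control (-0.28), with its deepest window 10 kb from the end, at a depth of 27319 in valbenazine and 30209 in the DMSO control. On chromosome 14 the right end had 199 in valbenazine and 237 in the DMSO control (-0.25). On chromosome 19 the right end had 426 in valbenazine and 506 in the DMSO control (-0.25), and the left end of chromosome 25 had 308 in valbenazine and 366 in the DMSO control (-0.25). Without windows at a scaled depth of 3000 or more the ratio was above 0 at 3 of these ends, with 0.30 at the left end of chromosome 1, 0.20 at the right end of chromosome 14 and 0.12 at the right end of chromosome 9.

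On chromosome 19 the right end held more windows past 2-fold than any other end. Its deepest windows formed runs 245 kb apart. In the first (48111001 to 48120000) the deepest window had a depth of 25942 in valbenazine and 30011 in the DMSO control, and in the second (48365001 to 48371000) the median depth was 19563.75 in valbenazine and 22054 in the DMSO control. Between them, in 245 windows (48120001 to 48365000), the median depth was 2 in valbenazine and 44 in the DMSO control. In the DMSO control all 245 windows were covered, with quartiles of 42 and 54, and none was below 42. This is a nearly level stretch, so its windows are not separate cases. In valbenazine 50 of them had a depth of 0 and the quartiles were 1 and 20. The median log2 ratio was -2.25, 243 of the 245 windows were lower in valbenazine, and 208 were lower by at least 2-fold. The 27 of them unlike both neighbours had a median of -0.90. In the other 255 windows of that end the median log2 ratio was 0.20 over the 133 compared. The stretch was chosen after its values were seen. Its mean scaled depth was 12.3 in valbenazine and 51.7 in the DMSO control.

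**Figure D4:**
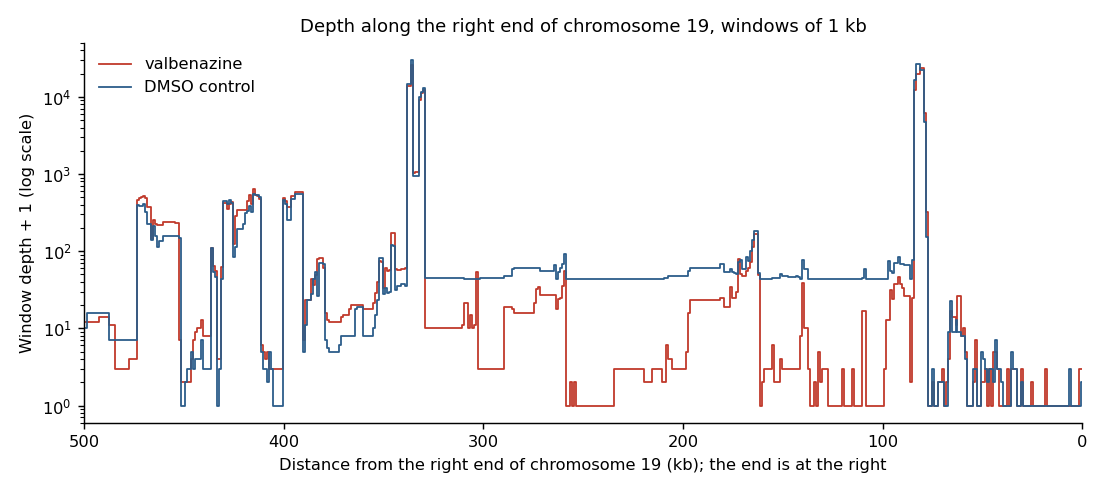
Window depth plus 1 (log scale) along the right end of chromosome 19, by distance from the end in kb, for valbenazine (red) and the DMSO control (blue). Between the deep runs the blue line is nearly level, with a median depth of 44, and the red line drops to 0 in 50 of 245 windows.

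At the left end of chromosome 15 the loci on both sides of 1 peak had ratios of opposite sign. The peak, 2 windows of which the deeper began at 107001, had depths of 23525.5 and 24048 in valbenazine and of 23851.5 and 25864.5 in the DMSO control. On the side of the chromosome end, a locus of 57 kb (49001 to 106000) had a median depth of 690 in valbenazine and 2273 in the DMSO control, a log2 ratio of -1.77 (quartiles -1.80 and -1.67). On the inner side, a locus of 13 kb (108001 to 121000) had 2338 in valbenazine and 783 in the DMSO control, a log2 ratio of 1.49 (quartiles 1.49 and 1.5). The outer locus was not level: 20 kb before the deepest window the depth was 706 in valbenazine and 5013 in the DMSO control, 10 kb before it 2800 in valbenazine and 5256 in the DMSO control, and 2 kb before it 5032 in valbenazine and 5310 in the DMSO control. Beside the peak the libraries were thus close on the outer side, and the difference lay further out. Added together, the median depths of the outer and the inner locus were 3028 in valbenazine and 3056 in the DMSO control. The opposite ratios thus stood beside a nearly equal total, and the reason was not tested.

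A similar arrangement, with smaller differences, lay at the left end of chromosome 6. The peak was a single window (345001 to 346000) with a depth of 12783 in valbenazine and 15664 in the DMSO control. The locus towards the chromosome end (296001 to 342000, 46 kb) had a median depth of 310.5 in valbenazine and 144 in the DMSO control, a log2 ratio of 0.95. The locus on the inner side (346001 to 357000, 11 kb) had 215 in valbenazine and 363 in the DMSO control, a log2 ratio of -0.80. The quartiles of the locus towards the end were 0.45 and 1.0, so the difference was uneven along it. The depth 30 kb before the peak was 311 in valbenazine and 143 in the DMSO control, and 10 kb before it 331 in valbenazine and 337 in the DMSO control. Nearer the peak the libraries parted again, with 403 in valbenazine and 312 in the DMSO control 6 kb before it. The added median depths of the outer and the inner locus were 525.5 in valbenazine and 507 in the DMSO control.

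**Figure D5:**
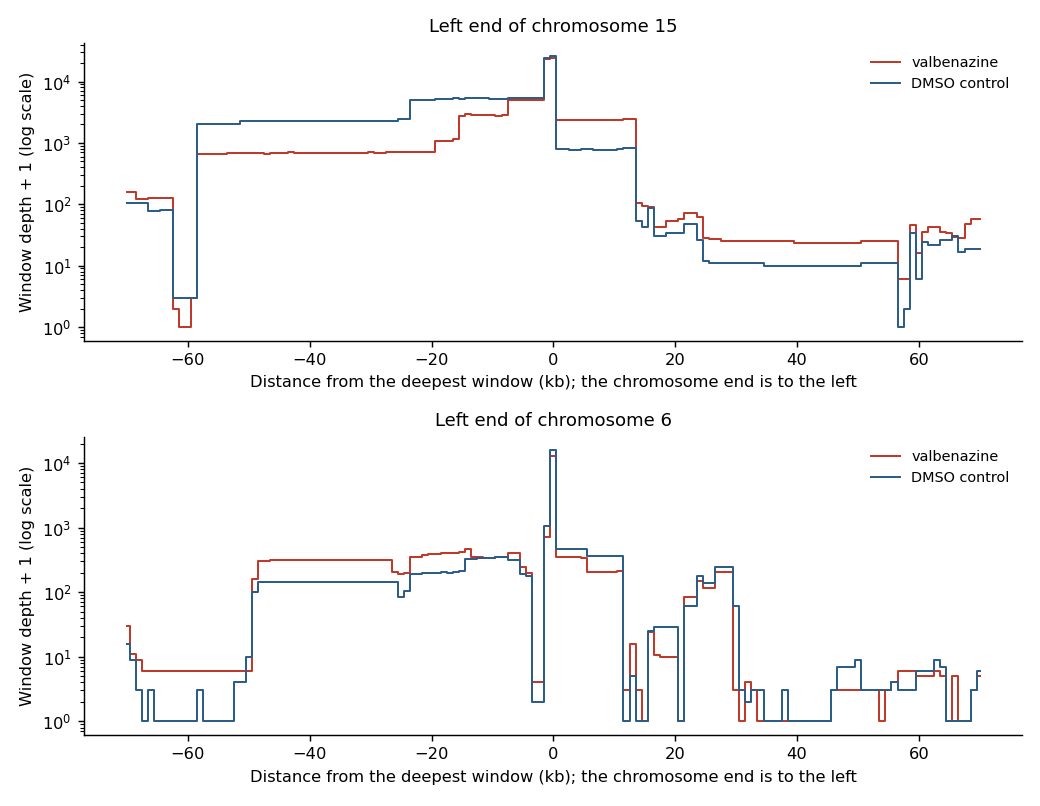
Window depth plus 1 (log scale) within 70 kb of the deepest window at the left end of chromosome 15 (upper panel) and of chromosome 6 (lower panel), for valbenazine (red) and the DMSO control (blue). By the medians of the loci at chromosome 15 the red line is below the blue one towards the chromosome end (690 in valbenazine, 2273 in the DMSO control) and above it on the inner side (2338 in valbenazine, 783 in the DMSO control), and at chromosome 6 the order of the medians is the other way round. On the outer side the lines come together near the peak at chromosome 15. At chromosome 6 they meet about 10 kb before the peak and part again nearer to it.

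These cases were chosen after their values were seen, and most deep runs of the ends did not show them. Of 16 runs of windows with a scaled depth of 3000 or more, the 10 windows on each side had median log2 ratios of opposite sign at 7, and differed by at least 2-fold from each other at 5. Both held at 2 runs, those at the left end of chromosome 15 and the first run at the right end of chromosome 19. The deep runs themselves had ratios between -0.96 and 0.07, and 14 of 16 were below 0. Windows of that depth outside the ends also had a median below 0, of -0.19.

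Of the 300 loci of the ends 3 were at least 2-fold higher in valbenazine (1.0%, where the background over all 4777 loci was 1.03%) and 2 at least 2-fold lower (0.667%, where the background was 0.23%). Under median-ratio scaling 3 were higher (1.0%, background 0.481%) and 5 lower (1.67%, background 1.15%), so that lower loci were the more numerous. The median log2 ratio was 0.10 at the ends and 0.08 for the loci 2 to 5 Mb away, and 91.0% of the loci of the ends differed by less than 1.5-fold. The highest ratio was that of a locus at the left end of chromosome 21 (7001 to 40000), with a median depth of 300 in valbenazine and 28 in the DMSO control, a log2 ratio of 3.05. It begins 7 kb from the end and is parted by 1 window from a run of deeper ones (41001 to 45000, median depth 5401.75 in valbenazine and 5370.75 in the DMSO control), whose ratio was -0.10. A locus of 3 kb at the left end of chromosome 22 (336001 to 339000) had 1028.5 in valbenazine and 308 in the DMSO control (1.67), with no window equal to a neighbour. The third was the inner locus of chromosome 15 described above.

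The next 5 loci in order lay just under 2-fold. Besides that of chromosome 6 they were at the right end of chromosome 21 (45812001 to 45852000, depth 262 in valbenazine and 135.5 in the DMSO control, log2 ratio 0.91), the right end of chromosome 24 (42055001 to 42060000, depth 142 in valbenazine and 68 in the DMSO control, 0.90), the right end of chromosome 18 (50913001 to 50920000, depth 157 in valbenazine and 82 in the DMSO control, 0.90) and the right end of chromosome 25 (37240001 to 37249000, depth 142 in valbenazine and 69 in the DMSO control, 0.89). At the low side, the left end of chromosome 18 held a locus (17001 to 36000) with a depth of 71 in valbenazine and 194 in the DMSO control, a log2 ratio of -1.39 and quartiles of -1.54 and -1.13. After it and those of chromosomes 15 and 6 came loci at the left ends of chromosomes 8 (164001 to 176000, depth 75.5 in valbenazine and 127 in the DMSO control, -0.75), 16 (40001 to 53000, depth 89 in valbenazine and 144 in the DMSO control, -0.71) and 2 (339001 to 343000, depth 131 in valbenazine and 205 in the DMSO control, -0.68), a second one of chromosome 18 (58001 to 61000, depth 114 in valbenazine and 179 in the DMSO control, -0.68) and one of chromosome 20 (108001 to 113000, depth 181 in valbenazine and 265 in the DMSO control, -0.59).

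The 8 deepest loci of the ends all had ratios below 0. As given above, windows at a scaled depth of 3000 or more outside the ends also had a median below 0 (-0.19). That of chromosome 17 left (117001 to 125000) reached a median depth of 141830.5 in valbenazine and 138856.2 in the DMSO control over 8 windows, with a median log2 ratio of -0.17. The depths and the ratio are medians taken separately. The 10 deepest windows held 99.7% of the depth of that end in valbenazine and 99.8% in the DMSO control, and the covered windows had a median depth of only 5 in each library. The next, at the right end of chromosome 9 (56228001 to 56231000), had 37427 in valbenazine and 47796 in the DMSO control (-0.43). The left end of chromosome 25 followed (193001 to 197000, depth 33687 in valbenazine and 37418.5 in the DMSO control, -0.22), and the right end of chromosome 14 (52564001 to 52568000, depth 21276 in valbenazine and 25395 in the DMSO control, -0.29). The other 4 were 3 loci of the right end of chromosome 19, with ratios of -0.50, -0.19 and -0.19, and the locus at the left end of chromosome 1 (7001 to 12000, depth 17593 in valbenazine and 24068 in the DMSO control, -0.53).

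Single windows with the largest ratios mostly stood at the edge of a covered stretch. The highest was at the right end of chromosome 25 (37366001), with a depth of 1309 in valbenazine and 6 in the DMSO control, a log2 ratio of 6.40. The window after it had 1374 in valbenazine and 833 in the DMSO control, and the window before it 16 in valbenazine and 14 in the DMSO control. The next highest were at the left end of chromosome 11 (167001, depth 808 in valbenazine and 6 in the DMSO control), the right end of chromosome 7 (73987001, depth 512 in valbenazine and 3 in the DMSO control), the left end of chromosome 1 (36001, depth 240 in valbenazine and 1 in the DMSO control), and the right (52161001, depth 198 in valbenazine and 1 in the DMSO control) and left (319001, depth 412 in valbenazine and 15 in the DMSO control) ends of chromosome 13. Each had a neighbour deeply covered in both libraries. The lowest was at the left end of chromosome 22 (396001), with 18 in valbenazine and 1640 in the DMSO control, a log2 ratio of -5.99, beside a window with 1884 in valbenazine and 1640 in the DMSO control. The others were at the left end of chromosome 11 (160001, depth 5 in valbenazine and 648.5 in the DMSO control) and the right ends of chromosomes 24 (42075001, depth 2 in valbenazine and 331 in the DMSO control), 12 (48837001, depth 1 in valbenazine and 249.5 in the DMSO control) and 11 (45400001, depth 2 in valbenazine and 272 in the DMSO control). The sixth, at the left end of chromosome 16 (273001, depth 1 in valbenazine and 185 in the DMSO control), had neighbours no deeper than 46.

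Longer runs of higher windows were found at several ends. At the right end of chromosome 18, 84 of the 373 windows compared (22.5%) were at least 2-fold higher, the highest count of any end. They included 39 in a row (50974001 to 51013000) with a median depth of 41 in valbenazine and 4 in the DMSO control. The highest share of higher windows was at the left end of chromosome 7, with 26 of the 52 compared. Of the 61 such windows at the left end of chromosome 21 (14.3% of those compared), 32 were in the locus near its tip. The right end of chromosome 23 also had 61 (24.3%), of which 48 were adjacent (45771001 to 45819000, median depth 19 in valbenazine and 1 in the DMSO control). On chromosome 10 the left end had 57 (20.7%), with a run of 20 (34001 to 54000, depth 53 in valbenazine and 8 in the DMSO control). The left end of chromosome 20 had 45 (14.1%), with a run of 25 (344001 to 369000, depth 19 in valbenazine and 3 in the DMSO control). A run of 14 windows at the right end of chromosome 16 (54767001 to 54781000) had a depth of 75 in valbenazine and 1 in the DMSO control, a log2 ratio of 3.03, and one of 13 at the left end of chromosome 14 (151001 to 164000) reached 137 in valbenazine and 12 in the DMSO control, with a log2 ratio of 2.77. Lower windows were counted at 42 ends, higher ones at all 48, and at 38 ends the higher ones were the more numerous. Higher windows were the more numerous over the whole tracks too, with 7.73% of the windows compared, against 1.05% lower. They made up 7.92% of the windows compared at the ends and 8.74% inward. Some inward blocks held more of them than any end. From 2000 to 2500 kb, 229 of 411 windows compared were higher next to the left end of chromosome 20, and 118 of 298 next to that of chromosome 14. Runs of higher windows inward are not given here.

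The remaining ends with very deep windows had ratios on both sides of 0. At the right end of chromosome 5 the mean scaled depth was 109 in valbenazine and 113 in the DMSO control (log2 ratio of sums -0.06). At the left end of chromosome 6 it was 95.5 in valbenazine and 95.4 in the DMSO control (0.00), in spite of the differences around its peak. On chromosome 8 the right end had 87.4 in valbenazine and 90.1 in the DMSO control (-0.04), with 91.8% of windows covered in valbenazine and 75.2% in the DMSO control. On chromosome 10 the right end had 149.6 in valbenazine and 158 in the DMSO control (-0.08). Ratios above 0 were found at the right end of chromosome 16 with 198 in valbenazine and 173 in the DMSO control (0.19), the left end of chromosome 21 with 144 in valbenazine and 119.7 in the DMSO control (0.27) and the right end of chromosome 25 with 169 in valbenazine and 136 in the DMSO control (0.32). On chromosome 17 the left end had by far the highest means, 2163 in valbenazine and 2446 in the DMSO control (-0.18).

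Several ends had no window at a scaled depth of 3000 and still many above 100. On chromosome 13 the left end had 214 such windows, the most of any end, with a mean scaled depth of 119 in valbenazine and 120.3 in the DMSO control (log2 ratio of sums -0.01). On chromosome 22 the left end had 143 of them and means of 143 in valbenazine and 135 in the DMSO control (0.09). On chromosome 18 the left end had 126 (means 102 in valbenazine and 93.6 in the DMSO control, ratio 0.12), the left end of chromosome 11 had 117 (means 111 in valbenazine and 95.3 in the DMSO control, ratio 0.22) and the left end of chromosome 9 had 114 (means 80.0 in valbenazine and 72.0 in the DMSO control, ratio 0.15). On chromosome 13 the right end had 102 with means of 78.8 in valbenazine and 74.6 in the DMSO control (0.08), and its counts of 2-fold windows were 3 higher and 0 lower. At the right end of chromosome 18 the means were 65.1 in valbenazine and 57.1 in the DMSO control (0.19), and at the right end of chromosome 11 they were 65.3 in valbenazine and 61.5 in the DMSO control (0.09).

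Among ends of middle depth, the right end of chromosome 1 had a mean scaled depth of 88.5 in valbenazine and 78.8 in the DMSO control, with 89.8% in valbenazine and 78.2% in the DMSO control of windows covered. On chromosome 6 the right end had 98 in valbenazine and 76.8 in the DMSO control, a log2 ratio of sums of 0.35, with 22 windows higher by 2-fold and 0 lower. On chromosome 15 the right end had 88.9 in valbenazine and 72.2 in the DMSO control (0.30), and the left end of chromosome 14 had 86.4 in valbenazine and 67.0 in the DMSO control (0.37), of which 13 windows were named above. On chromosome 12 the right end had 66.1 in valbenazine and 56.7 in the DMSO control (0.22), the left end of chromosome 19 had 60.4 in valbenazine and 51.6 in the DMSO control (0.23), and the right end of chromosome 24 had 59.7 in valbenazine and 55.4 in the DMSO control (0.11). At the left end of chromosome 10 the means were 49.6 in valbenazine and 40.1 in the DMSO control (0.31), with 95.4% in valbenazine and 85.2% in the DMSO control covered. On chromosome 8 the left end had 43.0 in valbenazine and 40.2 in the DMSO control (0.10), which is below its own 2 to 5 Mb at 140.1 in valbenazine and 156 in the DMSO control. On chromosome 3 the right end had 41.6 in valbenazine and 38.0 in the DMSO control (0.13), with 91.0% in valbenazine and 83.6% in the DMSO control covered.

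The shallower ends had mean scaled depths below 40. On chromosome 2 the left end had 37.2 in valbenazine and 33.2 in the DMSO control (log2 ratio of sums 0.16), and the right end of chromosome 7 had 37.5 in valbenazine and 34.1 in the DMSO control (0.14), with 69.8% in valbenazine and 84.0% in the DMSO control of windows covered. On chromosome 20 the left end had 31.2 in valbenazine and 23.9 in the DMSO control (0.38) although 94.8% in valbenazine and 93.2% in the DMSO control of its windows were covered. On chromosome 23 the left end had 28.2 in valbenazine and 21.9 in the DMSO control (0.36) and the right end 27.7 in valbenazine and 22.7 in the DMSO control (0.29), with 85.6% covered at the left and 86.4% at the right in valbenazine, and 80.8% at the left and 83.4% at the right in the DMSO control. On chromosome 12 the left end had 25.1 in valbenazine and 21 in the DMSO control (0.26), and the right end of chromosome 17 had 21.2 in valbenazine and 21.1 in the DMSO control (0.01), with 65.2% in valbenazine and 78.2% in the DMSO control covered. On chromosome 22 the right end was covered in 96.8% of windows in valbenazine and 82.8% in the DMSO control at a median depth of 7 in valbenazine and 4 in the DMSO control, with means of 18.2 in valbenazine and 15.1 in the DMSO control (0.27), and it held the longest run of equal values above 0, 82 kb. On chromosome 5 the left end had 16.9 in valbenazine and 17.2 in the DMSO control (-0.02), and its covered share was 91.2% in valbenazine and 74.6% in the DMSO control. On chromosome 16 the left end had 15.2 in valbenazine and 15.5 in the DMSO control (-0.02).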

How the data were processed

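RNA of whole zebrafish larvae was sequenced, with 1 library of 50 pooled larvae per group (10 µM valbenazine, DMSO control). Per the labels' protocols, RNAiso Plus served for extraction and a SMARTER mRNA-Seq kit for the libraries. The authors deposited a signal track per library, a depth for each window of 1000 bp, while no source used here gives the formula of the window value, an annotation or the number of reads. HISAT2 and the mouse build mm10 are named, per the submitters' processing notes. The window counts of 25 of 25 chromosomes equal the lengths of the zebrafish build GRCz11, as known in general and rounded up to whole windows, so positions are on GRCz11 and count from 1. The window at a right tip can span less than 1 kb. The gene table at hand is of GRCz12tu and places genes beyond the last window on 24 chromosomes, so no gene and no sequence was assigned. No pooled or unmatched column was used.

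The libraries were scaled to equal summed depth. The pseudocount, 9.03, was the median of the mean scaled depth over windows above 0, and ratios understate differences at low depth. The named ends, windows and loci were taken by rank: the 6 highest and 6 lowest ends by covered share and by ratio, the 6 deepest, 6 windows each way, 8 loci each way and the 8 deepest. Further cases are marked as chosen after their values were seen, and the runs of higher windows were also chosen so. The ends and these rules were chosen with earlier results of these data known. The steps were run on simulated tracks in which windows were drawn independently and scattered single windows were changed. The real tracks hold long runs of equal values, so that check does not bear on runs of changed windows. No p-value, interval or replicate error could be computed with 1 library per group. Alternatives were other scalings (median-ratio, and TMM, a trimmed mean of log ratios), pseudocounts, depth filters, end sizes and comparison windows. The computations ran in Python 3.11.15 (pandas 2.3.3, numpy 2.4.6) with scipy 1.17.1, and figures in matplotlib 3.10.9.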

Additional observations from a re-analysis of the deposited data

How the results depend on the processing

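No paired analysis was possible because each group has 1 library, and for the same reason leaving out replicates gives no values. The cause of the changes was not tested. The covered share of the ends exceeded that of the windows 2 to 5 Mb away under all alternatives run. The difference in percentage points was 10.4 in valbenazine and 10.8 in the DMSO control with ends of 1000 windows, and 18 in the DMSO control with ends of 250 windows. With windows covered at or above the pseudocount it was 14.5 in valbenazine and 16.4 in the DMSO control. In valbenazine it was 14.5 with windows covered at a depth of at least 10, 15.7 with chromosome 4 included and 17.3 against the windows 5 to 10 Mb away. Between 36 and 43 ends were above their own comparison windows in both libraries. The total was 48 ends except in 2 alternatives, with chromosome 4 included (42 ends above) and without the right end of chromosome 19 (40 ends above). The log2 of the mean depth of the ends over that inward was 1.89 in valbenazine, and 2.51 with ends of 250 windows, 1.43 with 1000 windows, 1.60 against 5 to 10 Mb, 1.58 in windows unlike both neighbours, 1.27 without windows of scaled depth 3000 or more and 1.35 without the left end of chromosome 17. In the DMSO control it was 2.07, and 2.75, 1.60, 1.67, 1.70, 1.35 and 1.49 under these alternatives. In windows unlike both neighbours the median depth of covered windows was 45 in valbenazine and 35 in the DMSO control.

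The direction of the ratio at the ends rests on the scaling. The median log2 ratio of 0.23 was -0.040 under median-ratio and -0.041 under TMM scaling, and ends above 0 numbered 11 under each instead of 35. Its difference from the windows inward lay between -0.06 and 0.04 under the alternatives. Windows at least 2-fold higher, 953, numbered 539 under median-ratio and TMM scaling, 1614 and 159 with the pseudocount 4 times smaller and larger, 321 with the depth filter 4 times higher, 205 among windows unlike both neighbours, and 474 and 1737 with ends of 250 and 1000 windows. Lower windows, 457, numbered 693 and 223 with the smaller and larger pseudocount, 155 with the higher filter, 86 among windows unlike both neighbours and 248 without the right end of chromosome 19. For these alternatives the numbers compared and the shares over all windows are not given. The counts can therefore not be set against the background. With ends of 250 and 1000 windows they also change with the number of windows taken. The share of higher ones, 67.6%, was 45.0% under median-ratio scaling, 44.8% under TMM scaling, 41.6% with the larger pseudocount and 79.3% without the right end of chromosome 19. Loci at least 2-fold lower numbered 5 under both other scalings instead of 2, and 55 instead of 11 over all loci. Without windows of scaled depth 3000 or more the ratio of sums was 0.30 at the left end of chromosome 1, 0.20 at the right end of chromosome 14 and 0.12 at the right end of chromosome 9, all below 0 otherwise. Leaving out single ends was chosen after seeing the data. The number of reads is unknown, so windows covered in 1 library alone, at a median depth of 2, do not show absence from the other.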
